A study of Sus scrofa with 6 samples.

Results

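Mitochondria in a cell form a network that is remodelled all the time by fusion, fission and mitophagy. The mitofusins MFN1 and MFN2 join the outer membranes of neighbouring mitochondria and OPA1 joins the inner membranes. The dynamin-like GTPase DNM1L is recruited to the outer membrane by adaptors such as MFF, with FIS1 also on that membrane, and constricts the organelle. Damaged or surplus mitochondria are taken up by autophagosomes, either through PINK1, a kinase that accumulates on depolarised mitochondria, or through receptors anchored in the outer membrane, among them BNIP3, BNIP3L (also called NIX) and FUNDC1. Intestinal epithelial cells depend on mitochondria for absorption and renewal, and bile acids are among the compounds that reach them from the lumen.

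These 10 genes were taken by name: MFN1, MFN2 and OPA1 for fusion, DNM1L, FIS1 and MFF for fission, and PINK1, BNIP3, BNIP3L and FUNDC1 for mitophagy. They were read in RNA-seq of IPEC-J2, an epithelial cell line from the small intestine of the pig, at 24 h. There were 2 groups of 3 libraries: cells given PBS (CON) and cells treated with 50 μM of the primary bile acid chenodeoxycholic acid (CDCA). The deposited table lists TPM (transcript abundance scaled by length and library total) for 63041 transcripts of 31908 gene IDs, and 9 of the 10 genes had a row. No row matched DNM1L by name or description, so the central fission GTPase was not analysed here. Of the 9 genes, 7 reached a mean of 1 TPM over the 6 libraries and were tested among 8708 genes. MFN2 and FIS1 lay under that limit.

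The listed TPM summed to between 351770 and 366073 per library, where a full library would sum to 1000000, and the table gives no read counts behind a value. Some genes that cells commonly express are listed at very low values, so a gene's value covers its listed transcripts and can miss others. The 13 mRNAs encoded by mitochondrial DNA took 14.3% ± 0.64 (SD, n = 3) of that sum in CON but 3.20% ± 0.28 (SD, n = 3) in CDCA, which moves every other share of the listed sum. Against the full 1000000 they are a smaller part, at 49478 to 55015 TPM in CON and 10529 to 12288 TPM in CDCA. Totals without them were taken over the listed transcripts only. What this scaling changes cannot be told apart from a shift between listed and unlisted transcripts. With totals computed without these mRNAs, the median log2 fold change of all tested genes went from 0.05 to -0.08, a shift of -0.13, and for the tested genes of the 10 the change relative to that median is also given where their call moved with this scaling. The epithelial markers EPCAM, KRT8, KRT18, TJP1, CLDN1 and CLDN4 were expressed, although not at a steady level. On the log2 scale CLDN4 rose by 1.84, EPCAM by 0.39, TJP1 by 0.22 and KRT18 by 0.19, and CLDN1 fell by 1.22, each at an FDR under 0.05 by limma. With totals computed without the mtDNA-encoded mRNAs, TJP1 and KRT18 lost their call (FDR 0.38 and 0.41 by limma). KRT8 was then lower (-0.27, FDR 0.0067 by limma). CDH1, VIL1 and CDX2 were listed under 1 TPM and KRT19 was not matched. Of 14 markers of blood, vessel, stromal, muscle, endocrine and neuronal cells, 11 were under 1 TPM, PTPRC, CHGA and ACTA2 among them at or near 0; the list summed to 28.3 to 29.1 TPM in CON and 20.1 to 23.3 TPM in CDCA. Most of the sum was LYZ (19.1 ± 0.80 TPM in CON and 17.1 ± 1.2 TPM in CDCA, SD, n = 3 each, FDR 0.085 by limma), while TUBB3 fell from 5.89 ± 0.82 to 2.38 ± 0.65 TPM (SD, n = 3 each, FDR 0.0023 by limma) and PECAM1 from 1.92 ± 0.24 to 1.22 ± 0.11 TPM (SD, n = 3 each, FDR 0.025 by limma). The part of these markers in the results was not tested. The study speaks of biological replicates, but neither it nor the labels say that the libraries of a group came from separate cultures, so the p-values measure the spread between these libraries, which may be technical.

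Among the mitophagy genes, BNIP3 was lower and PINK1 higher in CDCA under every setting. No fusion gene passed the test on all 6 libraries as deposited, but MFN1 was lower under 3 of the 12 alternatives. BNIP3 fell to 0.316 of its CON level, while PINK1 rose by a ratio of 1.76. MFF and FUNDC1 rose by ratios of 1.21 and 1.24. BNIP3L stood at a ratio of 1.51, from a very low level. By limma on log2(TPM + 1), with Benjamini-Hochberg adjustment over all tested genes, 4 of the 7 tested genes were higher and 1 was lower at an FDR under 0.05. Across all tested genes, 29.3% were higher and 23.9% lower by the same rule, so a change at this threshold was common in the transcriptome. BNIP3L, whose CON mean of 0.993 TPM was under the limit for testing, entered the test through its CDCA libraries, so its place among the higher genes is no support for a rise. It was under an FDR of 0.05 in this fit only, and under none of the 11 alternatives in which it could be fitted. Thus 3 genes were higher under 11 of the 12 alternatives and 1 under the other. Only BNIP3 also passed a log2 fold change of 1 in size, as did 3.9% of all tested genes downward and 3.51% upward. That other alternative took totals without the mtDNA-encoded mRNAs: 1 of the 7 genes was higher (PINK1) and 2 were lower (BNIP3 and MFN1), where 20.2% of all tested genes were higher and 31.9% lower. The higher genes thus made up 38.8% instead of 55.0% of all genes at an FDR under 0.05.

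**Figure D1:**
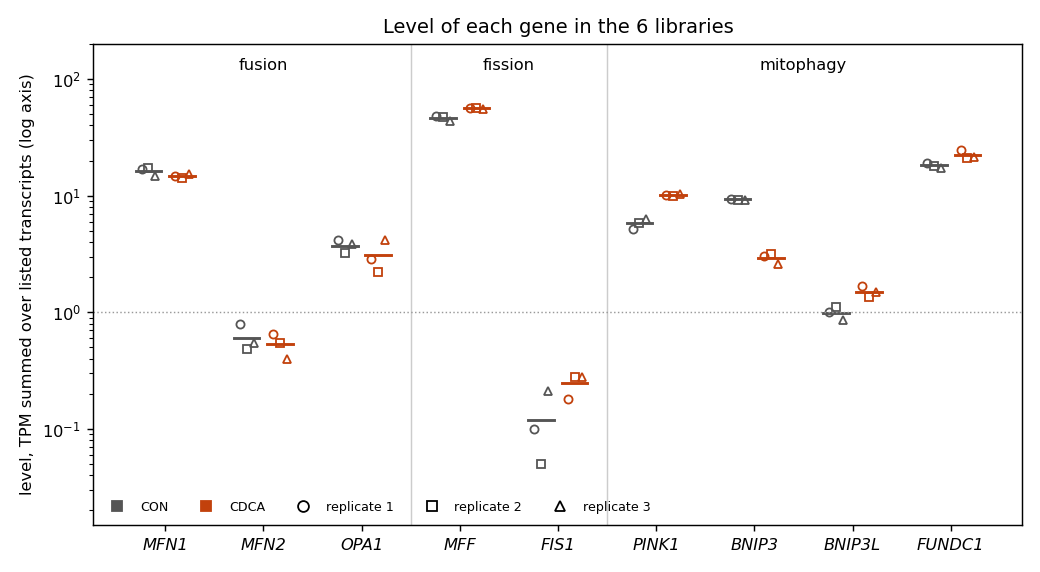
Level of the 9 listed genes (TPM summed over listed transcripts, log axis) in each of the 6 libraries, with CON in grey, CDCA in orange, a symbol for each replicate and a line at the mean of 3 libraries; the dotted line marks 1 TPM. BNIP3 lies between 9.14 and 9.45 TPM in CON and between 2.58 and 3.18 TPM in CDCA, and PINK1, MFF, BNIP3L and FUNDC1 lie higher in all CDCA libraries.

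In order of level, MFF was the most abundant of the 9 genes in CON, followed by FUNDC1, MFN1, BNIP3, PINK1, OPA1, BNIP3L, MFN2 and FIS1. TPM is scaled by transcript length, but this order is of the listed transcripts, and a gene whose main transcript is not listed would stand too low in it. In CON only the ranges of FUNDC1 and MFN1 overlapped among neighbours in this order, with FUNDC1 above MFN1 in each of the 3 libraries. In CDCA, PINK1 stood just after MFN1 and BNIP3 after OPA1 by their means. The ranges of OPA1 and BNIP3 overlapped, and OPA1 was above BNIP3 in only 1 of the 3 libraries. The mean level of BNIP3 was above that of PINK1 by a ratio of 1.61 in CON and was less than that of PINK1 in every CDCA library.

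Among the fusion genes, MFN1 (ENSSSCG00000039285), the better expressed of the mitofusins here, had 16.9, 17.3 and 14.8 TPM in the CON libraries and 14.7, 14.1 and 15.2 TPM in the CDCA libraries. The groups overlapped through CON replicate 3, the lowest of its group. The log2 fold change on TPM + 1 was -0.14 (SE 0.07, 95% interval -0.31 to 0.03, FDR 0.14 by limma), so no difference was shown, and the interval leaves room for a fall of that size or for none. The call depended on the setting: without CON replicate 3 the log2 fold change was -0.21 (FDR 0.031 by limma), with totals computed without the mtDNA-encoded mRNAs it was -0.29 (FDR 0.015 by limma), and with median ratio scaling it was -0.19 (FDR 0.043 by limma). Relative to the median of all tested genes it was -0.19 as deposited and -0.20 without the mtDNA-encoded mRNAs.

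OPA1 (ENSSSCG00000011822), whose processing by inner membrane proteases sets the balance of inner membrane fusion, had 4.14, 3.20 and 3.84 TPM in the CON libraries and 2.86, 2.22 and 4.13 TPM in the CDCA libraries. CDCA replicate 3 lay as high as the CON libraries, and the groups overlapped. The log2 fold change of -0.24 (SE 0.18, 95% interval -0.67 to 0.20, FDR 0.31 by limma) was within the spread between libraries. It ran from -0.42 without CDCA replicate 3 (FDR 0.056 by limma) to -0.08 without CDCA replicate 2 (FDR 0.71 by limma). Of its 7 listed transcripts, the most abundant held 44.2%, 74.7% and 83.6% of the OPA1 TPM in the CON libraries, so the split between transcripts varied among replicates of the same group. MFN2 (ENSSSCG00000003434), which also tethers mitochondria to the endoplasmic reticulum, had 0.80, 0.48 and 0.54 TPM in the CON libraries and 0.65, 0.54 and 0.40 TPM in the CDCA libraries over 2 transcripts, under the limit for testing. The groups overlapped, and in a fit with no filter the log2 fold change was -0.07 (FDR 0.76 by limma). The ratio of MFN2 to MFN1 was 0.0372 ± 0.0099 (SD, n = 3) in CON and 0.0362 ± 0.0091 (SD, n = 3) in CDCA (exact permutation test of the log2 ratio, two-sided, p = 0.8).

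MFF (ENSSSCG00000031572), the tail-anchored outer membrane protein that recruits DNM1L, had 48.3, 47.4 and 43.8 TPM in the CON libraries and 57.0, 56.5 and 55.4 TPM in the CDCA libraries. All 3 CDCA libraries lay above all CON libraries. Its log2 fold change was 0.27 (SE 0.05, 95% interval 0.16 to 0.39, FDR 0.0035 by limma). With totals computed without the mtDNA-encoded mRNAs it was 0.12 (FDR 0.074 by limma), and relative to the median of all tested genes it was 0.22 as deposited and 0.20 with those totals. FIS1 (ENSSSCG00000038938), a small tail-anchored protein of the outer membrane, had 0.10, 0.05 and 0.21 TPM in the CON libraries and 0.18, 0.28 and 0.28 TPM in the CDCA libraries. The groups overlapped, all values came from 1 of 2 listed transcripts while the other was at 0 in every library, and FIS1 lay under the limit for testing. In the fit with no filter its log2 fold change was 0.16 (FDR 0.17 by limma).

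**Figure D2:**
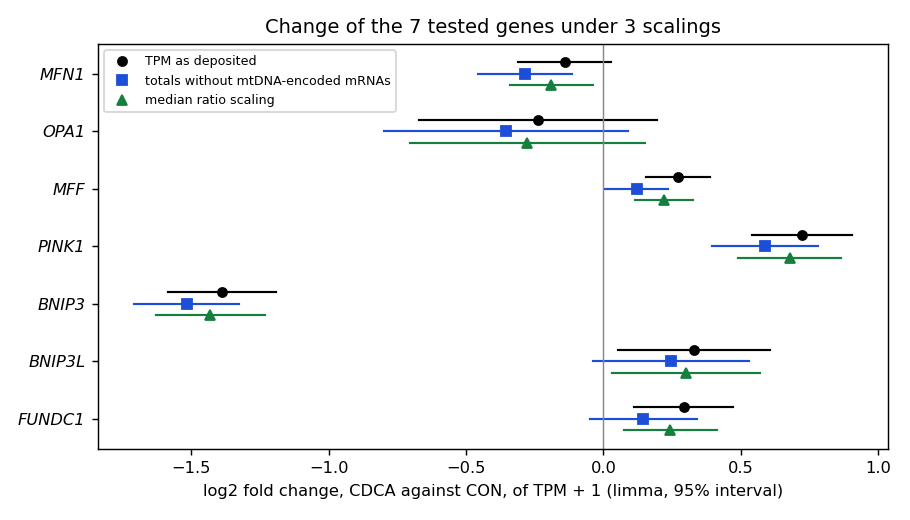
Log2 fold change of TPM + 1 in CDCA against CON for the 7 tested genes, with the 95% interval of the limma fit, for TPM as deposited (black circles), for totals without the mtDNA-encoded mRNAs (blue squares) and for median ratio scaling (green triangles). BNIP3 stays between -1.52 and -1.39 and PINK1 between 0.59 and 0.72, while the smaller changes of MFF, FUNDC1, BNIP3L and MFN1 move towards or away from 0 with the scaling.

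MFF is spliced into many forms, and its listed transcripts did not move together. The table gives no transcript IDs, so the 6 transcripts are named here by rank of mean TPM. Transcript 1, which made up 78.7% ± 1.1 of MFF in CON and 77.4% ± 1.1 of it in CDCA (SD, n = 3 each), had 37.7, 37.9 and 34.2 TPM in the CON libraries and 43.7, 44.4 and 42.7 TPM in the CDCA libraries. Transcript 2 had 3.09, 2.66 and 3.13 TPM in the CON libraries and 8.86, 6.51 and 7.75 TPM in the CDCA libraries, and its log2 fold change was 1.13 (SE 0.12, FDR 0.00075 by limma). Transcript 3 had 6.80, 6.62 and 6.18 TPM in the CON libraries and 3.76, 4.55 and 3.71 TPM in the CDCA libraries, and its log2 fold change was -0.59 (SE 0.10, FDR 0.0039 by limma). Neither transcript overlapped between the groups. The share of all transcripts without overlap was not computed. Among all tested genes, 33.8% had all CDCA libraries above CON and 27.8% had them all below, so a lack of overlap was common. These FDRs come from a fit over the 12205 listed transcripts with a mean of at least 1 TPM, of which 23.1% were higher and 18.7% lower in CDCA at an FDR under 0.05.

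Transcript 2 thus went from 6.39% ± 0.77 (SD, n = 3) to 13.7% ± 2.0 (SD, n = 3) of the MFF TPM, and transcript 3 from 14.1% ± 0.083 (SD, n = 3) to 7.12% ± 0.82 (SD, n = 3). The ratio of transcript 2 to transcript 3 was 0.454, 0.402 and 0.506 in CON and 2.36, 1.43 and 2.09 in CDCA, a 4.24-fold difference that does not depend on how a library was scaled. Each CDCA library lay above each CON library (p = 0.1 in an exact two-sided permutation test of the log2 ratio, as small as this design can give). The pair was picked after its values were seen, and RSEM divides reads shared by transcripts of a gene by estimation, so the single transcript values are uncertain.

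**Figure D3:**
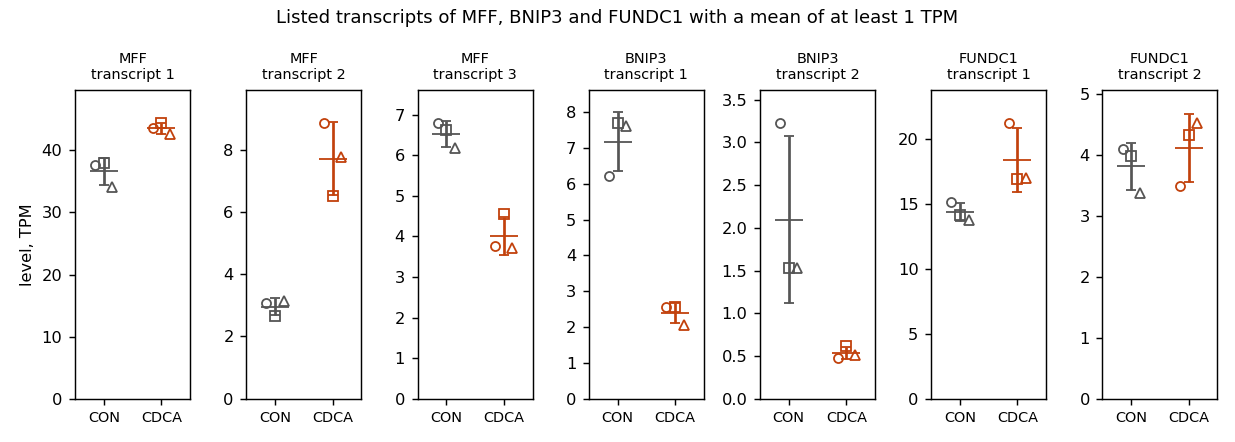
Level (TPM, each axis from 0) of the listed transcripts of MFF, BNIP3 and FUNDC1 with a mean of at least 1 TPM, by library, with the mean and SD of 3 libraries. MFF transcript 2 rises while transcript 3 falls, both BNIP3 transcripts lie lower in CDCA, and FUNDC1 transcript 2 overlaps between the groups.

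Among the mitophagy genes, PINK1 (ENSSSCG00000003506) had 5.22, 5.84 and 6.26 TPM in the CON libraries and 10.2, 9.87 and 10.4 TPM in the CDCA libraries, all from 1 transcript. The lowest CDCA library lay well above the highest CON library. The log2 fold change was 0.72 (SE 0.08, 95% interval 0.54 to 0.91, FDR 0.00034 by limma), and 761 tested genes rose further. Relative to the median of all tested genes it was 0.68 as deposited and 0.67 with totals computed without the mtDNA-encoded mRNAs. Over the 6 libraries, the genes whose change from the CON mean ran nearest to that of PINK1 were CAMK2D, JDP2 and PGD, with root mean square distances of 0.033, 0.038 and 0.043 on the log2 scale.

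BNIP3 (ENSSSCG00000024388), a BH3-domain protein of the outer membrane that binds LC3 and is a well known hypoxia-inducible gene, had 9.45, 9.23 and 9.14 TPM in the CON libraries and 3.03, 3.18 and 2.58 TPM in the CDCA libraries. Within each group the libraries lay close together, and the groups were far apart. On the log2 scale BNIP3 changed by -1.39 (SE 0.08, 95% interval -1.59 to -1.19, FDR 3.3e-05 by limma), and 159 of the 8708 tested genes fell further. Relative to the median of all tested genes it was -1.44 as deposited and -1.43 with totals computed without the mtDNA-encoded mRNAs. Transcript 1 fell from 7.18 ± 0.83 to 2.39 ± 0.28 TPM (SD, n = 3 each, FDR 0.00038 by limma). Transcript 2 was at 2.10 ± 0.98 TPM in the CON libraries and at 0.537 ± 0.074 TPM in the CDCA libraries (SD, n = 3 each), and as it reached a mean of 1 TPM through CON alone its test is not used. CON replicate 1 differed from the other CON libraries in this split, with 34.2% of its BNIP3 TPM in transcript 2 against 16.6% and 16.7%, while the gene sums were alike. The genes nearest to BNIP3 in their change over the 6 libraries were EME1, TRIP13 and CRIM1, with distances of 0.046, 0.058 and 0.061 on the log2 scale.

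BNIP3L (ENSSSCG00000009658), the paralogue of BNIP3 known for clearing mitochondria in maturing red cells, had 1.01, 1.11 and 0.86 TPM in the CON libraries and 1.67, 1.36 and 1.48 TPM in the CDCA libraries over 3 transcripts. The groups did not overlap, but the CON mean was under 1 TPM and the CDCA libraries brought the gene over the limit for testing. Its change on the log2 scale was 0.33 (SE 0.12, 95% interval 0.05 to 0.61), with an FDR of 0.0498 by limma, just under 0.05, and the FDR was over 0.05 under all 11 alternatives that could be fitted, from 0.062 to 0.14, and 0.12 with no filter. The direction held under all 11, with log2 fold changes of 0.25 to 0.55, but the call did not. Relative to the median of all tested genes the change was 0.28 as deposited and 0.33 with totals computed without the mtDNA-encoded mRNAs. The ratio of BNIP3L to BNIP3 was 0.107, 0.1203 and 0.0941 in CON and 0.551, 0.428 and 0.574 in CDCA, 4.82-fold higher in CDCA, with no overlap (exact permutation test of the log2 ratio, two-sided, p = 0.1). BNIP3 stood at 0.316 of its CON level and BNIP3L at 1.51. As BNIP3L lay higher and BNIP3 lower in every CDCA library, the lack of overlap and this p were already given by those levels. The ratio is therefore no further support for a rise of BNIP3L.

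FUNDC1 (ENSSSCG00000012258), a receptor with FUN14 domain that acts in hypoxia-induced mitophagy, had 19.2, 18.1 and 17.2 TPM in the CON libraries and 24.7, 21.2 and 21.6 TPM in the CDCA libraries. All CDCA libraries lay above all CON libraries, and CDCA replicate 1 was the highest. For FUNDC1 the log2 fold change was 0.29 (SE 0.08, 95% interval 0.11 to 0.47, FDR 0.016 by limma). It was 0.15 (FDR 0.18 by limma) with totals computed without the mtDNA-encoded mRNAs, and relative to the median of all tested genes it was 0.24 as deposited and 0.23 with those totals. Its transcript 1 went from 14.4 ± 0.69 to 18.4 ± 2.5 TPM (SD, n = 3 each, FDR 0.038 by limma), and its transcript 2 was at 3.82 ± 0.39 TPM in CON and 4.12 ± 0.55 TPM in CDCA (SD, n = 3 each, FDR 0.61 by limma). Of the 7 tested genes, MFF, PINK1, BNIP3L and FUNDC1 had all CDCA libraries above all CON libraries, as did 33.8% of all tested genes, and BNIP3 had them all below, as did 27.8%.

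The sum of the receptors depended on the scaling. Summed over BNIP3, BNIP3L and FUNDC1, the level was 29.7, 28.5 and 27.2 TPM in CON and 29.4, 25.8 and 25.6 TPM in CDCA, and the groups overlapped (exact permutation test of the log2 sum, two-sided, p = 0.3). With totals computed without the mtDNA-encoded mRNAs the sum was 31.3, 29.9 and 28.9 in CON and 28.4, 24.0 and 24.5 in CDCA, so that all CDCA libraries lay below all CON libraries, at 0.850 of the CON level (p = 0.1 in the same exact permutation test). With median ratio scaling the groups overlapped, at 0.913 of the CON level (p = 0.3 in the same exact test). The makeup of the sum, which no scaling of a library can change, differed: BNIP3 held 31.8%, 32.4% and 33.6% of this sum in CON and 10.3%, 12.3% and 10.1% in CDCA (p = 0.1 in an exact two-sided permutation test), and FUNDC1 held most of the rest. The sum and the share were computed after the levels were seen. The summed level of the listed fission genes over that of the fusion genes, which is carried by MFF and MFN1, was 2.22, 2.26 and 2.29 in CON and 3.14, 3.36 and 2.82 in CDCA, 1.37-fold higher in CDCA with no overlap (exact permutation test of the log2 ratio, two-sided, p = 0.1). It was planned with DNM1L and computed without it.

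**Figure D4:**
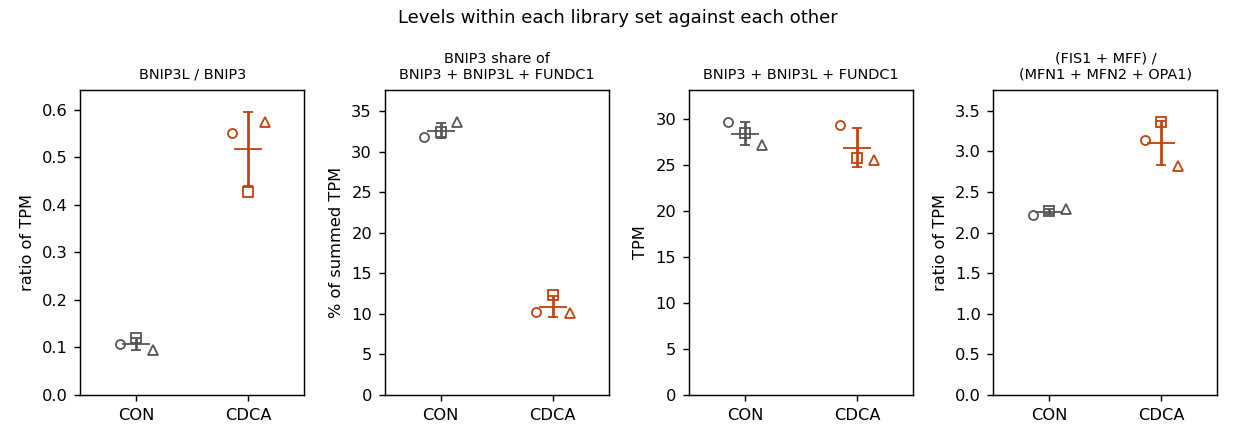
Quantities formed within each library, with the mean and SD of 3 libraries and each axis from 0: the ratio of BNIP3L to BNIP3, the share of BNIP3 in the summed TPM of BNIP3, BNIP3L and FUNDC1, that sum, and the ratio of listed fission genes to fusion genes. On the TPM as deposited, which the plot shows, the sum of the receptors overlaps between CON and CDCA; the other quantities do not overlap and do not depend on the scaling of a library.

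Other genes of the same processes were read from lists, with the median log2 fold change of all tested genes at 0.05. Each count of higher or lower genes below stands beside a background of 29.3% higher and 23.9% lower among all tested genes as deposited, or of 20.2% higher and 31.9% lower with totals computed without the mtDNA-encoded mRNAs. Of 11 other fission genes, 5 were tested, with a median of 0.39. The ubiquitin ligase MARCHF5 rose from 1.73 ± 0.29 to 2.86 ± 0.20 TPM (SD, n = 3 each, FDR 0.0089 by limma), and MTFR1 and MTFR1L also rose, while MTFP1, an inner membrane protein needed for fission, fell from 24.5 ± 3.8 to 18.0 ± 2.2 TPM (SD, n = 3 each, FDR 0.029 by limma). With totals computed without the mtDNA-encoded mRNAs, MTFR1 had a limma FDR of 0.085. MIEF2, a receptor for DNM1L, was at 2.74 ± 0.47 TPM in CON and 3.49 ± 0.48 TPM in CDCA (SD, n = 3 each, FDR 0.13 by limma).

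Of 14 genes of inner membrane proteases, prohibitins and fusion control, 11 were tested, and 6 were lower and none higher at an FDR under 0.05, where the background is 23.9% lower and 29.3% higher, with a median of -0.20. On totals without the mtDNA-encoded mRNAs, 8 were lower, where 31.9% of all tested genes were. The matrix protease LONP1 fell from 50.2 ± 1.4 to 30.4 ± 1.4 TPM (SD, n = 3 each, FDR 5.7e-05 by limma). OMA1, the stress-activated protease that cuts OPA1, was at 1.5 ± 0.18 TPM in CON and 0.680 ± 0.29 TPM in CDCA (SD, n = 3 each); it is one of the 6, but as it reached the limit for testing through CON alone its test is not used. CLPP was at 15.3 ± 1.9 TPM in CON and 12.9 ± 0.47 TPM in CDCA (SD, n = 3 each, FDR 0.065 by limma), and with those totals its log2 fold change went from -0.23 to -0.37 (FDR 0.014 by limma). Genes of the MICOS complex and cristae had 9 tested of 11, with 5 lower, none higher and a median of -0.25, against the same background. IMMT, the core MICOS subunit also called mitofilin, fell from 26.2 ± 1.7 to 9.49 ± 1.9 TPM (SD, n = 3 each; log2 fold change -1.39, SE 0.13, FDR 0.00018 by limma), and MICOS13 and APOO fell by 0.39 and 0.35 on the log2 scale. Of 7 genes of mitochondrial transport, 4 were tested: MYO19 and TRAK1 fell by 0.55 and 0.48 on the log2 scale, SYNJ2BP rose by 0.25, and RHOT1 had a log2 fold change of -0.17 (FDR 0.064 by limma). On totals without the mtDNA-encoded mRNAs, SYNJ2BP was at 0.12 (FDR 0.28 by limma) and RHOT1 at -0.32 (FDR 0.0099 by limma), so that 3 of the 4 were lower and none higher, where 31.9% and 20.2% of all tested genes were.

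Of 24 other mitophagy genes, 21 were tested, and 9 were higher and 1 lower, with a median of 0.35, where the background is 29.3% higher and 23.9% lower. SQSTM1, the ubiquitin-binding receptor p62, rose from 5.75 ± 1.3 to 39.3 ± 12 TPM (SD, n = 3 each, FDR 0.00017 by limma). ULK1, the kinase that starts autophagosome formation and phosphorylates FUNDC1, rose from 6.92 ± 0.18 to 19.3 ± 1.2 TPM (SD, n = 3 each, FDR 1.4e-05 by limma). The deubiquitinase USP8 rose from 2.82 ± 1.3 to 7.17 ± 1.4 TPM (SD, n = 3 each, FDR 0.012 by limma). The other genes that rose were OPTN, TAX1BP1, CALCOCO2, TBK1, BNIP1 and USP30, a deubiquitinase of the outer membrane. The gene that fell was the phosphatase PGAM5, from 28.8 ± 1.6 to 24.3 ± 0.88 TPM (SD, n = 3 each, FDR 0.012 by limma). With totals computed without the mtDNA-encoded mRNAs, 7 were higher and 1 lower, where 20.2% and 31.9% of all tested genes were, and CALCOCO2 (FDR 0.065 by limma) and BNIP1 (FDR 0.077 by limma) lost their call.

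Messenger RNAs of 11 tested genes of abundant mitochondrial proteins, such as citrate synthase, porins and import receptors, had a median of -0.30, with 6 lower and 2 higher against a background of 23.9% and 29.3%. One of the higher genes, the import receptor TOMM70, lost its call with totals computed without the mtDNA-encoded mRNAs (log2 fold change 0.22 to 0.07, FDR 0.0093 to 0.32 by limma). The import pore subunit TOMM40 fell from 63.6 ± 4.8 to 34.8 ± 0.98 TPM, TIMM44 fell from 20.0 ± 1.6 to 12.0 ± 0.64 TPM, and the matrix chaperone HSPA9 rose from 126 ± 8.4 to 231 ± 2.3 TPM (SD, n = 3 each). The summed level of the list, on TPM as deposited, was 776 to 853 TPM in CON and 843 to 864 TPM in CDCA, and these ranges overlap. HSPA9, which rose, is a large part of this sum, while 6 of the 11 tested genes were lower. The sum therefore does not show that the genes of the list kept their level. In bulk RNA, fewer cells that express a gene and less of its RNA per cell cannot be told apart. All 13 mtDNA-encoded mRNAs fell, with a median of -2.26, and COX1, COX3 and COX2 moved most. Of 14 tested gene IDs of the integrated stress response, 13 were higher, with a median of 2.43, led by DDIT3 (3.86), NUPR1 (3.73) and the cystine transporter SLC7A11 (2.98, log2 fold changes). FGF21 (0.83 TPM in CON, 1.89 TPM in CDCA) and a second DDIT3 ID (0.223 TPM in CON, 2.09 TPM in CDCA) are in that count, but as they reached the limit for testing through CDCA alone their tests are not used.

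BNIP3 is a known target of hypoxia-inducible factors, so a list of 23 such targets was read beside it. Of these, 17 were tested, 7 were lower and 2 higher against a background of 23.9% and 29.3%, with a median of -0.29; without the mtDNA-encoded mRNAs in the totals, 9 were lower and 2 higher, against 31.9% and 20.2%. LDHA, which makes lactate from pyruvate, fell from 1248 ± 36 to 478 ± 15 TPM (SD, n = 3 each, FDR 2.9e-06 by limma). EGLN3, an oxygen-sensing prolyl hydroxylase, fell from 10.1 ± 0.30 to 3.52 ± 0.44 TPM (SD, n = 3 each, FDR 5.7e-05 by limma). VEGFA, the vascular growth factor, rose from 19.0 ± 2.7 to 49.9 ± 3.8 TPM (SD, n = 3 each, FDR 0.00011 by limma). PDK1 and PGK1 were among the genes that fell and INSIG2 among those that rose, so the list had members in both directions.

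**Figure D5:**
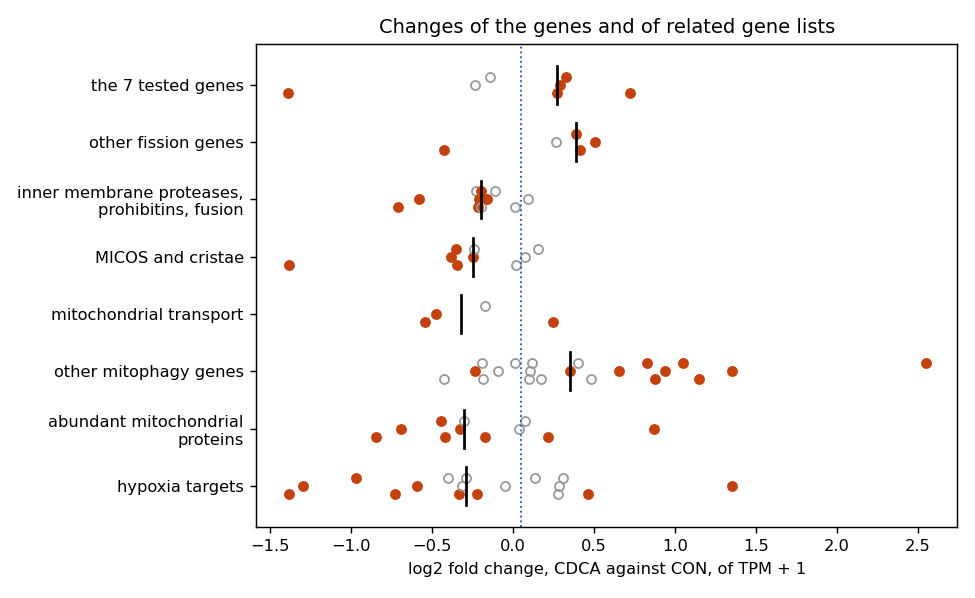
Log2 fold change of TPM + 1 in CDCA against CON for each tested gene (points, filled where the limma FDR is under 0.05, with the vertical position inside a row arbitrary) of the 7 genes and of 7 related lists, with a black bar at each median and a dotted line at the median of all tested genes. Mitophagy genes lie mostly to the right, led by SQSTM1, while genes of cristae, inner membrane proteases and abundant mitochondrial proteins lie mostly to the left.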

How the data were processed

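The authors sequenced RNA from 6 IPEC-J2 libraries and quantified it with RSEM; the deposited values are TPM per listed transcript. The processing notes name Bowtie 0.12.2 and mm10, a mouse build, while the gene IDs are Ensembl pig IDs; the annotation release is not given in the sources used here, so no coordinates are given. Transcript TPM were added up per gene ID. The 10 genes were matched by the deposited name, or by description where the name is blank; other genes took their symbol from an Ensembl ID table, or else from the deposited name.

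TPM are not counts, so edgeR, which the authors used, was not run. Genes whose mean reached 1 TPM were fitted on log2(TPM + 1) by limma 3.58.1 (lmFit, eBayes with a trend) in R 4.3.3, with CDCA against CON, no covariates and Benjamini-Hochberg adjustment over all genes tested. On this scale a fold change understates that of a low gene. Tested on 3 simulated sets of 8560 to 8566 genes with 200 changed by 1.5 on the log2 scale, the fit recovered 93.4% to 96.0% of the changed genes with 9 to 12 false calls; smaller changes were not simulated. Ratios within a library were compared by exact permutation tests, two-sided, whose smallest p is 0.1.

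The genes, lists and tests were chosen with earlier results of these data known. Named in the text are all 10 genes, the 3 largest changes of each list and the 3 genes nearest in pattern to the largest rise and the largest fall; any other gene was named after its value was seen. Alternatives were another pseudocount, no filter, totals without the mtDNA-encoded mRNAs, median ratio scaling, a replicate block, the highest listed transcript and each library left out in turn; the transcript fit, the MFF transcript ratio and the receptor sum (also under both other scalings) and share were added after seeing the data.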

Additional observations from a re-analysis of the deposited data

How the results depend on the processing

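BNIP3 and PINK1 kept their direction and an FDR under 0.05 under all 12 alternatives, with log2 fold changes of -1.63 to -1.27 and 0.59 to 0.81. MFF and FUNDC1 did so under 11 of 12, and OPA1 stayed over 0.05 under all 12. The count of genes at an FDR under 0.05 went from 4 higher and 1 lower to 1 higher and 2 lower with totals computed without the mtDNA-encoded mRNAs, to 3 higher and 2 lower with median ratio scaling, and to 3 higher and 1 lower with a pseudocount of 0.1 TPM, no filter, the replicate block or the highest listed transcript; without each library in turn, 3 were higher and 1 to 2 lower, the second being MFN1 without CON replicate 3. Among all tested genes, 306 were called higher and 340 lower (FDR under 0.05 and a log2 fold change over 1 in size), which became 509 and 505 with a pseudocount of 0.1 TPM, and 222 and 460 with totals computed without the mtDNA-encoded mRNAs; the cause was not tested. The log2 difference in the MFN2 to MFN1 ratio, -0.04, turned to 0.39 with the highest listed transcripts and ran from -0.23 to 0.18 without each library in turn, above 0 without CON replicate 1 (0.16) or CDCA replicate 3 (0.18). MFF transcript 3 by itself went against the gene sum (-0.59). BNIP3L could not be fitted by its highest listed transcript, which lay under 1 TPM.

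Same-numbered libraries of the groups did not deviate together (correlations of -0.04, -0.09 and -0.05 across tested genes), so the numbers are not taken to pair them. With the replicate number as a block, the limma FDR of BNIP3L was 0.10 at a log2 fold change of 0.33, and no other tested gene of the 7 changed its call. The table gives no read counts, so no counting error could be set beside the low values of MFN2, FIS1 and BNIP3L. No group of 3 libraries was tested for outliers.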
